A study of Bos taurus with 11 samples.

Results

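Low methionine (LM) was compared directly with low histidine (LH) in BMEC, cultured epithelial cells of the bovine mammary gland, which in the animal make and secrete milk. Libraries LM 1 and LM 3 were set against LH 1, LH 2 and LH 3, which are 5 of the 11 libraries in the table. Genes were described when they averaged 200 or more raw counts over these 5 libraries, which held for 12740 of 27607 genes (46.1%). The lowest mean count inside this limit was 200 and the highest outside it was 199.6. Of the 12740 genes, 12494 also reached the limit in each group separately and 246 reached it through one group only. LM 2 was excluded by the study after quality checks, so it entered neither the choice of genes nor the main test and was used to look at direction.

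The cells came from lactating Holstein cows, were used at the third passage, and had been differentiated with lactogenic hormones. LM medium contained 5 µM methionine with 40 µM histidine and 80 µM lysine. LH medium contained 10 µM histidine with 20 µM methionine and 80 µM lysine, and cells stayed in either medium for 60 h. The CTL medium, with 40 µM histidine, 80 µM lysine and 20 µM methionine, and the LK medium, with 20 µM lysine, 40 µM histidine and 20 µM methionine, entered the shared estimate of spread. Insulin, prolactin, hydrocortisone, glucose and acetate were part of every medium, also of CTL. The libraries are replicate cultures from an unknown number of cows, so p-values rest on spread between cultures, which may be technical. In the main test this spread was largely pooled over genes. The p-value of a gene with uneven replicates therefore reflects its own spread only in part. The table gives Ensembl gene identifiers without symbols, none of which matched the available reference table, so genes are referred to by identifier or by rank, and epithelial and other cell type markers were not checked.

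Both amino acids are essential for making milk protein, and a lack of either leaves its transfer RNA uncharged, which is sensed by the kinase GCN2 and raises translation of the transcription factor ATF4. Methionine in addition starts translation, gives rise to S-adenosylmethionine, the methyl donor of the cell, and passes its sulfur to cysteine. Histidine is used in protein and is otherwise broken down through urocanate or turned into histamine and carnosine. The comparison therefore asks whether the cells responded differently to the lack of one or the other amino acid, each supplied below its CTL concentration. With bulk RNA, a change in the number of cells of one kind and a change in RNA per cell cannot be told apart.

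Between 199231024 and 278354731 reads were counted on genes in the 5 libraries, and genes averaging 200 or more counts took 99.89% to 99.91% of the reads of every library. No LH library had a described gene at 0 reads, while LM 1 and LM 3 each had 3 and LM 2 had 74. Genes with any read numbered 16058, 16452 and 16402 in LH 1 to LH 3 and 15268 and 15694 in LM 1 and LM 3. They numbered 14524 in LM 2 and 15011 and 15480 in CTL 1 and CTL 2. The totals exceeded the number of read pairs sequenced for each library. Of a library's counts from 1 to 20, 67.5% to 76.2% were even numbers. The mates of a pair thus appear to have been counted separately, so a fragment could add 2 counts and a mean of 200 counts can stand for fewer fragments. Reads were amplified by PCR and carried no molecular identifiers, so they are not counts of independent molecules. The intervals given here come from spread between libraries, largely pooled over genes, with 2 LM libraries, and may cover less than the full error.

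Libraries of different deficiencies were nearly as alike as libraries of the same one. Across the 12740 genes, the median absolute log2 difference in normalized counts was 0.131 to 0.189 for the 3 pairs within LH and 0.167 for the pair of LM libraries. It was 0.166 to 0.207 for the 6 pairs that joined an LM with an LH library, so the ranges within and between groups overlapped. LM 2 stood apart from both groups, at 0.315 and 0.347 from LM 1 and LM 3 and at 0.294 to 0.385 from the LH libraries. Genes are not independent replicates, and these distances were not tested.

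**Figure D1:**
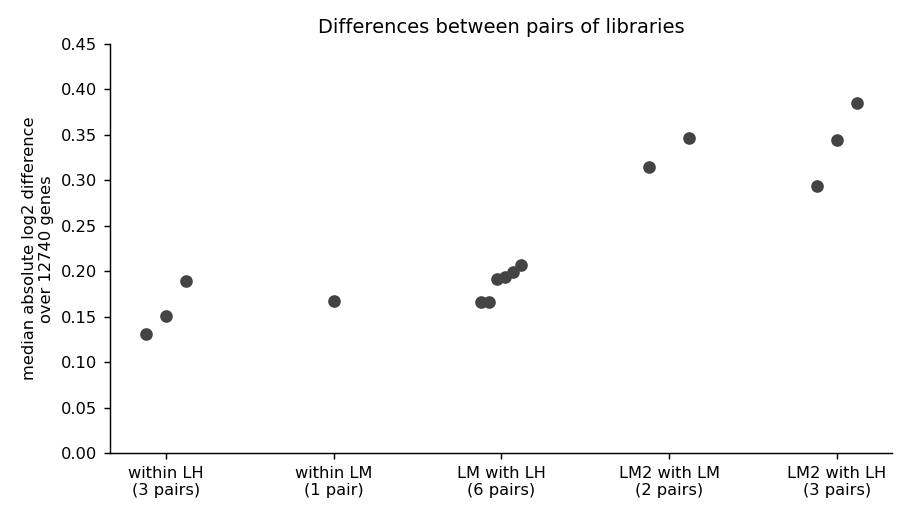
Each point is the median absolute log2 difference in normalized counts between a pair of libraries over 12740 genes, grouped by the kind of pair on the horizontal axis. Pairs of an LM with an LH library lie between 0.166 and 0.207, next to the pairs within LH and within LM, and every pair with LM 2 lies at 0.294 or above.

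Most genes differed little between LM and LH, with a median log2 fold change of 0.0035 and 5th and 95th percentiles of -0.441 and 0.456. edgeR's quasi-likelihood test, adjusted by the Benjamini-Hochberg method over all 18345 genes tested, called 16 of the 12740 genes (0.126%, where 0.164% of all genes tested were called). A call required a false discovery rate (FDR) under 0.05 together with a difference of 2-fold or more, which is 1 on the log2 scale. In LM, 7 were higher (0.0549%, against 0.0436% of all genes tested) and 9 lower (0.0706%, against 0.120%). The 30 calls among all genes tested included 14 of genes averaging under 200 counts (0.250% of that class), which are not described here. All but 1 of the 16 called genes averaged 200 or more counts in each group. The number of calls was 11 when LM 2 was added to the fit, and 7 of these 11 were among the 16. It was 2 when only the LM and LH libraries were fitted with LM 2 included. Leaving out either LM library lost 8 or 9 of the 16, as 7 of the 49 calls without LM 3 and 8 of the 22 without LM 1 were among them. Calls numbered 26 without CTL 1 and 28 without CTL 2, each including all 16, and 27 with DESeq2, including 13.

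**Figure D2:**
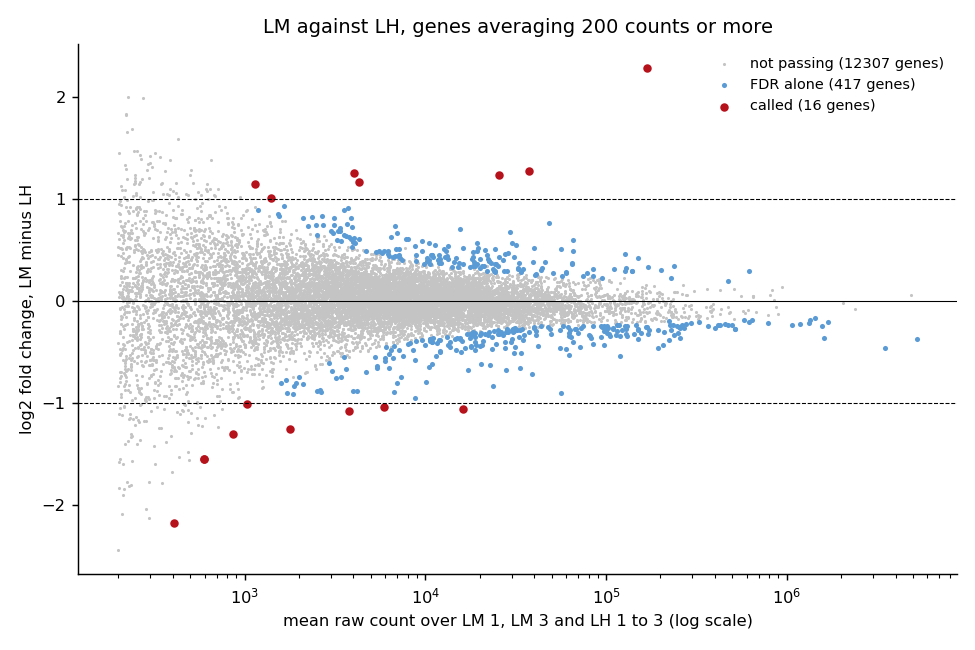
Each point is a gene averaging 200 or more counts, with its mean raw count over the 5 libraries on a log scale and its log2 fold change, LM minus LH. The 16 called genes lie beyond the dashed lines at 1 and -1, and the 417 genes that pass the FDR but not the fold change lie between these lines, mostly at high counts.

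Called genes are ranked here by p within each direction, and the one with the smallest p was ENSBTAG00000020873, first among the genes higher in LM. It had 327743 and 318932 normalized counts in LM 1 and LM 3, against 64144, 66599 and 68105 in LH 1, LH 2 and LH 3. The LM libraries lay far above all LH libraries, and the CTL libraries, with 69042 and 68182, lay beside LH. The mean was 323338 ± 6231 in LM (SD, n = 2) and 66283 ± 2000 in LH (SD, n = 3), a ratio of 4.88 in favour of LM. Its log2 fold change was 2.29 (standard error 0.0831, 95% interval 2.12 to 2.45, edgeR adjusted p = 2.12e-31). LM 2, scaled over 11 libraries, had 292629 normalized counts, 2.15 above the LH mean on the log2 scale. This gene was called under each of 21 alternatives that refitted the data, with a log2 fold change of 2.24 to 2.34 and adjusted p-values of 1.32e-264 to 1.98e-07 in the 20 without a changed null hypothesis. At the same log2 fold change of 2.29, its edgeR adjusted p was 2.12e-31 in the main fit and 1.32e-264 with no limit on low counts. These p-values thus moved with the setting while the difference did not. ENSBTAG00000020873 was also the gene called by glmTreat, which asks for a change significantly beyond 2-fold rather than beyond 0. In LK it had 68340, 70602 and 103702 normalized counts, so 2 of the 3 LK libraries lay beside CTL and LH.

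ENSBTAG00000048608 was second among the genes higher in LM. Its normalized counts were 55744 in LM 1 and 62258 in LM 3, and 31151, 26131 and 15979 in LH 1 to LH 3. LM 1 and LM 3 lay above all LH libraries and within the CTL range of 47892 to 72389. The means were 59001 ± 4606 in LM (SD, n = 2) and 24420 ± 7730 in LH (SD, n = 3), with a log2 fold change of 1.27 (standard error 0.151, edgeR adjusted p = 1.99e-08). LM 2 had 121040 normalized counts, above every LM, LH and CTL library of the fit. The adjusted p of this gene was 0.063 with DESeq2, at a log2 fold change of 1.27, and 0.105 in the fit of the 6 LM and LH libraries with LM 2, at 1.71. Over 20 alternatives the log2 fold change ranged from 1.04 to 1.71 and the adjusted p from 2.31e-61 to 0.105.

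The gene with the smallest p among those lower in LM was ENSBTAG00000030913. It had 10553 and 9327 normalized counts in LM 1 and LM 3 and 22841, 16273 and 23061 in LH 1 to LH 3, with no overlap between the groups. CTL was lower than both, at 6822 and 4972, and LK was higher than both, at 43596, 39345 and 40535. Means were 9940 ± 867 in LM (SD, n = 2) and 20725 ± 3857 in LH (SD, n = 3). The log2 fold change of ENSBTAG00000030913 was -1.06 (standard error 0.107, 95% interval -1.27 to -0.846, edgeR adjusted p = 1.15e-10). LM 2 lay on the same side, at 9395 normalized counts. Without LM 3, LH 1 or LH 3 its log2 fold change was -0.97, -0.98 and -0.98, just short of the threshold, with adjusted p-values between 6.93e-33 and 0.039 over 20 alternatives.

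ENSBTAG00000053649 was next among the genes lower in LM. It had 4218 and 3212 normalized counts in LM 1 and LM 3 and 9061, 5838 and 7976 in LH 1 to LH 3. LM 1 and LM 3 were near CTL, which had 3969 and 3146, whereas every LH library lay above these LM libraries and CTL. The means were 3715 ± 711 in LM (SD, n = 2) and 7625 ± 1640 in LH (SD, n = 3). Its log2 fold change was -1.04 (standard error 0.152, edgeR adjusted p = 3.10e-06). It was -0.86 with all 11 libraries, -0.85 without LM 3, -0.89 without LH 1 and -0.98 with library size only, each short of the threshold, and over 20 alternatives its adjusted p ranged from 8.12e-13 to 0.29. LM 2 had 5164 normalized counts, under the lowest LH library but above both CTL libraries.

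Within each direction, the other called genes were smaller in difference or in count than those named. Those ranked 3 to 7 by p among the genes higher in LM had log2 fold changes of 1.01 to 1.26, with edgeR adjusted p-values of 2.20e-08 to 0.0203. Their means ran from 766 to 17028 normalized counts in LH and from 1702 to 40157 in LM. Ranks 3 to 9 of the genes lower in LM had log2 fold changes of -2.18 to -1.01 and edgeR adjusted p-values of 1.56e-05 to 0.0493, with means of 616 to 4803 in LH and 136 to 2268 in LM. Ranks 5 to 8 of this direction averaged only 406.4 to 862.4 raw counts, and their standard errors of 0.354 to 0.622 were several times those of the first-ranked genes. The LM and LH libraries did not overlap in 15 of the 16 called genes, where 29.8% of the 12740 genes and 25.0% of all genes tested had no overlap.

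Within LM, the called genes did not all behave alike. In the gene ranked 4 among those higher in LM, LM 3 had 54110 normalized counts and LM 1 had 26205, while the LH libraries lay between 16230 and 18570. In the gene ranked 5, LM 3 had 9666 and LM 1 had 3691, against 3692 in LH 1, and this is the called gene in which the groups overlapped. Both were also uneven in LK, where LK 2 had 57007 and 10046 and the other LK libraries had 24940 to 27401 and 4623 to 4765. Their edgeR adjusted p-values in the main fit, 1.91e-07 at rank 4 and 0.000207 at rank 5, rest on a spread largely pooled over genes. Neither gene was called with DESeq2 or without LM 3. Of 21 alternatives, the first-ranked gene higher in LM was called in 21 and the gene lower in LM at rank 9 in 7, the fewest among the 16.

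**Figure D3:**
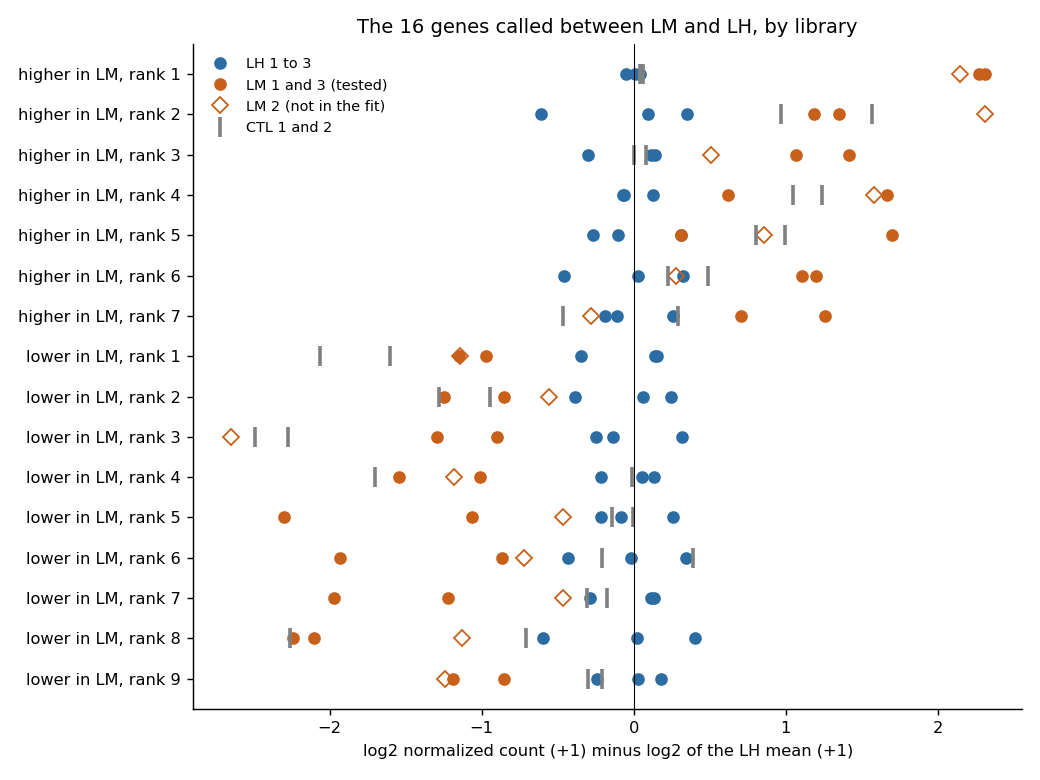
Rows are the 16 called genes, ranked by p within each direction, and the horizontal axis is the log2 normalized count of a library minus the log2 of the LH mean, each with 1 added. LM 1 and LM 3 (filled orange) are clear of the LH libraries (blue) in every row but that of rank 5 among the genes higher in LM, LM 2 (open diamonds, scaled over 11 libraries) is beyond all LH libraries on the same side in 14 rows, and the grey ticks are the CTL libraries.

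LM 2 was not used in the test and therefore gives a check of direction, although the LH libraries enter both sides of it. It lay on the same side of the LH mean as LM 1 and LM 3 in 15 of the 16 called genes and beyond all LH libraries on that side in 14. Over the 12740 genes these shares were 59.1% and 48.0%, and over all genes tested 60.4% and 43.0%. All 9 genes lower in LM had LM 2 below every LH library. LM 2 was also the library with the fewest genes detected, and whether this lowered it in genes with few reads was not tested. Among the 7 higher in LM, LM 2 lay above every LH library in 5, inside the LH range in the gene ranked 6 (928 normalized counts, against 555 to 955 in LH) and below it in the gene ranked 7 (822, against 872 to 1199). In size, LM 2 was nearer to LH than LM 1 and LM 3 in some genes and further in others: its log2 difference from LH was -0.56 in ENSBTAG00000053649 and -2.65 in the gene ranked 3 in the same direction, in which LM 1 and LM 3 had -1.29 and -0.90.

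Setting both deficiencies beside CTL showed different ways of arriving at a difference. The comparisons share the CTL libraries and come from the same fit. Against CTL, 10.1% of the 12740 genes passed an FDR of 0.05 in LM and 7.88% in LH, where the shares of all genes tested were 7.45% and 5.73%. Of the 7 genes higher in LM, 3 were above CTL in LM and did not pass the FDR in LH, among them ENSBTAG00000020873, with a log2 fold change of 2.24 in LM (standard error 0.0954, edgeR adjusted p = 7.00e-28) and -0.05 in LH (0.0832, edgeR adjusted p = 0.834). In the gene at rank 7, also among these 3, LM 2 had 822 normalized counts scaled over 11 libraries, between the CTL libraries at 726 and 1226. Another 3 were below CTL in LH and did not pass the FDR in LM, among them ENSBTAG00000048608, with a log2 fold change of -1.30 in LH (standard error 0.151, edgeR adjusted p = 1.46e-09) and -0.03 in LM (0.167, edgeR adjusted p = 1.00). In the other two of these 3, at ranks 4 and 5, LM 1 lay below and LM 3 above both CTL libraries, so their LM values of 0.09 and 0.26 against CTL average libraries on opposite sides. The remaining 1, at rank 6, passed in neither.

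Of the 9 genes lower in LM, 2 were above CTL in both deficiencies and higher in LH. One of them was ENSBTAG00000030913, whose log2 fold change against CTL was 0.75 in LM (standard error 0.115, edgeR adjusted p = 1.76e-06) and 1.81 in LH (0.111, edgeR adjusted p = 2.60e-20). The other was at rank 3, with 1.30 in LM and 2.38 in LH, but LM 2, with 763 normalized counts scaled over 11 libraries, lay below the CTL libraries, which had 852 and 995. In ENSBTAG00000053649 the level was above CTL in LH, by 1.10 on the log2 scale, and at 0.06 in LM (edgeR adjusted p = 0.947). LM 2, however, had 5164 normalized counts of this gene scaled over 11 libraries, above the CTL libraries at 3969 and 3146. The genes at ranks 5 and 6 were below CTL in LM, at -1.48 and -1.43, and at 0.07 and -0.12 in LH. The other 4 passed against CTL in neither deficiency, so the direct comparison put LM below LH there without placing either against CTL. These 4, at ranks 4, 7, 8 and 9, were called in 18, 11, 11 and 7 of 21 alternatives.

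Values in LK were not on one side. Against CTL, 19.0% of the 12740 genes passed the FDR in LK (13.7% of all genes tested). Among the called genes, the genes lower in LM at ranks 1, 3 and 4 had log2 fold changes of 2.80, 2.96 and 1.73 in LK, above those in LH and in LM. The gene higher in LM at rank 3 had 1.47 in LK, near the 1.22 of LM. For ENSBTAG00000020873 the value in LK was 0.24 (edgeR adjusted p = 0.0469), of which LK 3 was the high library.

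**Figure D4:**
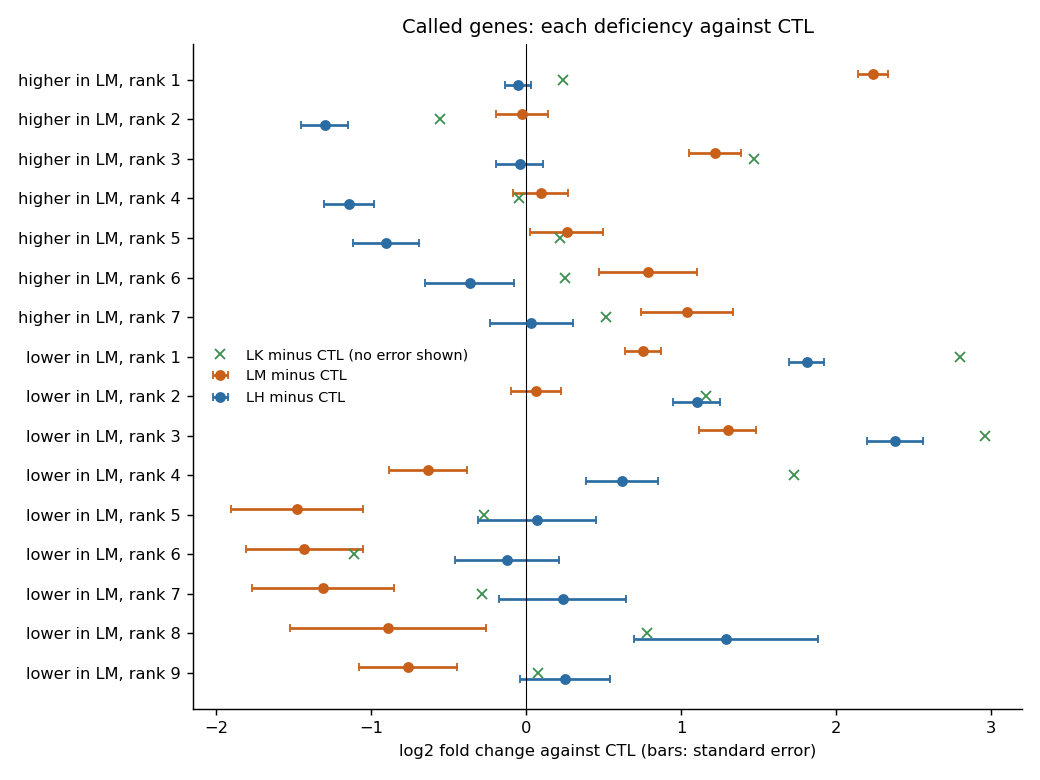
Log2 fold changes against CTL of the 16 called genes in LM (orange) and LH (blue), with bars of 1 standard error, and in LK (green crosses, no error drawn). Rows of the genes higher in LM hold both LM points above 0 with LH near 0 (rank 1, at 2.24 and -0.05) and LH points below 0 with LM near 0 (rank 2, at -1.30 and -0.03).

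With the FDR alone, a further 417 genes passed, so that 433 of the 12740 genes (3.40%, against 2.44% of all genes tested) differed between LM and LH. Of the 433, 179 were higher in LM (1.41%, against 0.981% of all genes tested) and 254 lower (1.99%, against 1.46%). Their differences were small, with a median absolute log2 fold change of 0.40, and 306 were under 0.5. The direction of this excess depended on scaling: with library size only, 329 were higher and 155 lower, a setting that moved the median log2 fold change of the described genes from 0.0035 to 0.055. The number passing was smaller, at 116 (64 higher and 52 lower), with all 11 libraries, 184 (82 and 102) with only the 5 libraries, and 5 (2 and 3) with these and LM 2. It was 132 without LM 1, 285 without LM 3 and 284 without LH 3, each with more genes lower than higher in LM. LM 2 lay on the same side of LH as the other LM libraries in 343 of the 433 genes (79.2%), where the share over all described genes was 59.1%, and beyond all LH libraries on the opposite side in 60 (13.9%, against 30.3% of all described genes).

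Among the 179 genes higher in LM at this FDR, 65 were above CTL in LM without passing in LH, 33 were below CTL in LH without passing in LM, 29 were above CTL in both and 52 passed in neither. Among the 254 lower in LM, 120 were below CTL in LM without passing in LH, 38 were above CTL in LH without passing in LM, 21 were above and 18 below CTL in both, 56 passed in neither and 1 was below CTL in LM and above it in LH. The genes higher in LM had a median log2 fold change against CTL of 0.39 in LM, -0.06 in LH and 0.23 in LK. For those lower in LM, the medians were -0.29 in LM, 0.07 in LH and -0.12 in LK. LM lay further from CTL than LH in 127 of the 179 (70.9%) and in 173 of the 254 genes (68.1%), and it did so in 56.6% of all described genes, with 2 libraries in LM and 3 in LH. These are descriptions of genes chosen for a difference between LM and LH.

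How small a difference could be seen depended on the number of reads. The median standard error of the log2 fold change was 0.626 for the 1121 genes averaging 200 to 500 counts, 0.36 for 500 to 1000, 0.189 for 1000 to 5000, 0.112 for 5000 to 20000 and 0.077 for the 2271 genes with 20000 or more. The 95% interval of the difference lay inside 2-fold in either direction for 10828 of the 12740 genes (85.0%). It did so for 1.34% of genes in the lowest class and for 99.8% in each of the highest 2 classes. A 2-fold difference was thus within reach of the interval for 1912 genes, mostly those with few reads, and 141 genes had an estimate of 2-fold or more without passing the FDR. At 20000 or more counts, 10.2% of genes passed the FDR, 72 of them higher and 159 lower in LM. This share and its direction depended on the setting, with 153 higher and 98 lower with library size only, 34 and 28 with all 11 libraries and 38 and 63 with only the 5 libraries.

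**Figure D5:**
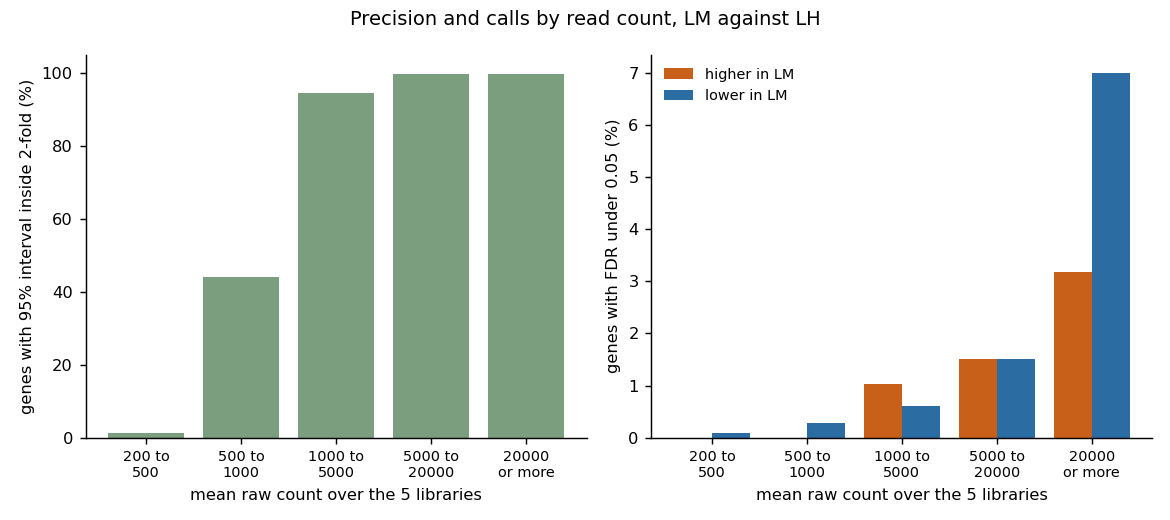
The left panel gives the percentage of genes whose 95% interval for LM minus LH lay inside 2-fold, and the right panel the percentage with an FDR under 0.05, higher and lower in LM, by class of mean raw count. The interval lay inside 2-fold for 1.34% of genes at 200 to 500 counts and for 99.8% at 20000 or more, where the share passing the FDR in the fit of 10 libraries was also highest, at 10.2% (72 genes higher and 159 lower, against 34 and 28 with all 11 libraries).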

How the data were processed

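RNA-Seq libraries of differentiated BMEC were analysed from the raw counts per gene that the authors deposited, without normalization, for 11 libraries. For these counts the authors trimmed with fastp, mapped to ARS-UCD1.2 with STAR and assigned reads to Ensembl release 100 genes with featureCounts, whose strand and read-pair options are not stated in the sources used here, although totals and an excess of even counts point to mates counted separately. Groups and replicate numbers came from the sample titles, and 0 count columns were left unused.

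Counts were fitted in R 4.3.3 with edgeR 4.0.16, using TMM normalization, 4 groups and the 10 libraries kept by the study, as a quasi-likelihood model with 6 residual degrees of freedom, which moderation over genes raised to between 54.8 and 59.8. Genes with more than 10 reads in sum were tested, with Benjamini-Hochberg adjustment over all of them. Standard errors were derived from the F statistic. To obtain normalized counts, CPM after TMM was multiplied by the mean library total, and values of LM 2 were scaled with factors of all 11 libraries.

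Alternatives were DESeq2 1.42.0, other scalings, other limits on low counts, other sets of libraries, glmTreat and a replicate block. Both count models were first tested on simulated data. The limit of 200 counts, the tests and the gene lists were chosen with earlier results of these data known. Genes to be named were those called, by smallest p. Because 0 of 27607 identifiers matched the 37063 genes of the RefSeq table, 2 identifiers in each direction are printed, gene lists were not tested and no sequence is shown. Whether these genes share reads with near-identical copies is not known. Python 3.11.15 with matplotlib 3.10.9 drew the figures.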

Additional observations from a re-analysis of the deposited data

How the results depend on the processing

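All 16 called genes kept their direction under the 21 alternatives that refitted the data. The main count of 16 (7 higher and 9 lower in LM) was 2 (1 and 1) with the 6 LM and LH libraries including LM 2, 27 (10 and 17) with DESeq2, 9 (5 and 4) with filterByExpr, 1 (1 and 0) with glmTreat, for which 19 genes had an unadjusted p under 0.05, and 433 (179 and 254) with the FDR alone. The lower genes numbered 5 with the 5 LM and LH libraries, with 8 higher, and 5 with only genes averaging 200 or more counts in the fit, with 6 higher. Leaving out single libraries gave 12 to 49 calls, of which 5 to 13 were higher and 4 to 37 lower. The count was highest without LM 3 and lowest without LH 3, and without LM 1 it was 22, with 17 lower. Without LH 1, 11 were higher and 9 lower, without CTL 1 the split was 12 and 14, and without CTL 2 it was 13 and 15. By the FDR alone, the 433 became 132 to 600 when single libraries were left out, 270 with filterByExpr and 575 with DESeq2. With LM 1 or LM 3 left out, the remaining LM library is assumed to vary like the other groups. The cause of these moves was not tested. Counting only genes averaging 200 or more counts in each group, a limit chosen after seeing the data, left 15 calls.

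Replicate numbers showed no clear pairing of the samples, but so few libraries cannot exclude one. The correlation of deviations from the group means between same-numbered LM and LH libraries was 0.083 and 0.019 for numbers 1 and 3, and with LM 2 included it was -0.10, -0.18 and 0.047 for numbers 1, 2 and 3, with 0 of the 3 LM libraries correlating best with its own number. Without LM 2, LM 1 correlated best with LH 1 and LM 3 with LH 2, but the deviations of a pair of libraries mirror each other and give 1 independent value. With the replicate block, 16 genes were called, 6 higher and 10 lower, and 14 of them were among the main 16, while 540 passed the FDR alone, against 433. The counts in gene lists could not be computed, as identifiers matched no symbols. Precision was limited below about 1000 counts, where the median standard error was 0.36 or more.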
